A study of Arabidopsis thaliana with 6 samples.

Results

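A set of 10 genes that regulate or respond to the iron status of the plant was read in *Arabidopsis thaliana* seedlings and all 10 were found by their locus among the 30865 genes of the count table. They are the subgroup Ib transcription factors *bHLH38* (AT3G56970), *bHLH39* (AT3G56980), *bHLH100* (AT2G41240) and *bHLH101* (AT5G04150), the regulators *PYE* (AT3G47640) and *BTS* (AT3G18290), the distribution genes *FRO3* (AT1G23020), *NAS4* (AT1G56430) and *OPT3* (AT4G16370), and the ferritin gene *FER1* (AT5G01600). The list rests on gene function and uses no measured value, although genes and lists were chosen with earlier results of these data known. Messenger RNA came from whole seedlings aged 9 days that had grown on 1/2 MS medium containing 1% sucrose and had no treatment. The groups were wild type, of the accession Col-0, and nup50c mutants, which carry a defect in a gene for a nuclear pore protein, with 3 libraries each. The labels give neither the kind of mutation nor the time of day at harvest. The number after the hyphen in a mutant title was read as a replicate, although it could also name an allele.

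Iron uptake in Arabidopsis roots is switched on when iron runs short. The transcription factor FIT pairs with a subgroup Ib bHLH protein, and the pair activates the ferric reductase gene *FRO2* and the transporter gene *IRT1*. The Ib genes are themselves activated by subgroup IVc bHLH factors such as ILR3 and bHLH115, which the E3 ubiquitin ligase BTS marks for degradation. PYE is a bHLH repressor of distribution genes that include *NAS4* and *FRO3*. Ferritin stores iron in plastids and its gene *FER1* is induced when iron is plentiful, so the Ib genes and *FER1* are commonly read as opposite ends of the same scale.

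Subgroup IVc and Ib factors bind the E-box, CANNTG, and a palindromic form of it, the G-box, CACGTG. Both were searched on both strands in the 300 bases before the annotated start of each gene in TAIR10.1, and every G-box is also an E-box. A G-box was found before 4 of the 10 genes, *bHLH38*, *bHLH100*, *BTS* and *OPT3*. Of 27443 protein-coding genes 7.09% hold one in the same window. An E-box was found before 6 of the 10, these 4 and *bHLH39* and *NAS4*, against 61.9% of all. Before *BTS* the G-box occurred 3 times, at 140, 118 and 64 bases from the start. The windows with a G-box are printed with it in capitals, and that of *bHLH39* is added because it is the tandem neighbour of *bHLH38*, with its E-boxes in capitals. The sequences are those of the RefSeq genome, 5′ to 3′ on the gene's strand.
bHLH38, chr3:21085246-21085545, minus strand: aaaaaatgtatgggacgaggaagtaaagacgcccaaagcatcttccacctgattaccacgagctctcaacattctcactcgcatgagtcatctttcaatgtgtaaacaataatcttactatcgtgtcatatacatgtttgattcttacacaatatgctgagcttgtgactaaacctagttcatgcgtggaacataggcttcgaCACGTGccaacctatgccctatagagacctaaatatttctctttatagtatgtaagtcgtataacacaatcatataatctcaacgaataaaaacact
bHLH39, chr3:21087711-21088010, minus strand: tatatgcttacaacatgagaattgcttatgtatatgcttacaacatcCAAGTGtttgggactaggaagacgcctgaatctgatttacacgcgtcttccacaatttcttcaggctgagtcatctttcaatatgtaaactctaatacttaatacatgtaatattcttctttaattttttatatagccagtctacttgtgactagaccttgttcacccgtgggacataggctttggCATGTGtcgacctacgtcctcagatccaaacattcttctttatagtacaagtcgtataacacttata
bHLH100, chr2:17199455-17199754, minus strand: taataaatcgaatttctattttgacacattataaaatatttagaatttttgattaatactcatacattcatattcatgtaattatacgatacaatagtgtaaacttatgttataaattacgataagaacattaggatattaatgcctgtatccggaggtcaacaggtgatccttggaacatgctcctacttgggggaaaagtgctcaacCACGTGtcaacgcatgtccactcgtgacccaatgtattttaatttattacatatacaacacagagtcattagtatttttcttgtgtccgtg
BTS, chr3:6273666-6273965, plus strand: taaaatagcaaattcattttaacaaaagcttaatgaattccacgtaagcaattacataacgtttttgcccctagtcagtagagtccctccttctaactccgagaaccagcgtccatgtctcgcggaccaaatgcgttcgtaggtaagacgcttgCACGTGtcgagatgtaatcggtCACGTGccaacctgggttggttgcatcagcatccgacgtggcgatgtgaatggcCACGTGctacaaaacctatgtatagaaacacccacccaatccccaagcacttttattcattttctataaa
OPT3, chr4:9250344-9250643, minus strand: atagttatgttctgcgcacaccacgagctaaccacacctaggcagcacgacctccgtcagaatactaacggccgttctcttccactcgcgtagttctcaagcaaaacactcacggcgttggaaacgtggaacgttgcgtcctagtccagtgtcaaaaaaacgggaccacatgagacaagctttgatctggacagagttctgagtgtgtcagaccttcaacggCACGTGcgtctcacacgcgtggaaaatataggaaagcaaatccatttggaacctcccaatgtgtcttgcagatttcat
The G-box lies 91 bases before the start of *bHLH38*, 85 before *bHLH100* and 72 before *OPT3*. In *bHLH39* no G-box was found, and its E-boxes lie 247 and 61 bases before the start. These are matches of letters in a window, and nothing was measured about binding.

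The count table summed to between 33273007 and 39574236 counts per library. *NUP50C* (AT4G11790), the gene taken as mutated, was measured at 35.7, 30.4 and 29.0 CPM (counts scaled to library size, corrected for library composition by TMM) in Col-0 and at 13.6, 10.01 and 10.3 in the mutant. The groups did not overlap (log2 fold change -1.49, SE 0.15, edgeR adjusted p = 0.00293). The labels do not say whether the libraries of a genotype are separate plantings. The p-values thus rest on the spread among these libraries, which may be technical. Whole seedlings were pooled over tissues, so fewer cells of a type and less RNA per cell cannot be told apart. Summed CPM of marker genes ran from 71.2 to 90.1 in Col-0 and from 73.8 to 77.5 in nup50c for 8 root hair genes, from 85.4 to 98.6 and from 88.4 to 96.6 for 6 endodermis genes, and from 250.3 to 255.8 and from 230.7 to 264.2 for 5 phloem genes. They ran from 86.8 to 91.5 and from 83.7 to 98.7 for 4 xylem genes. The xylem marker *VND7* was listed at 0 in 3 libraries, wild-type replicate 3 and nup50c replicates 1 and 3. For 6 leaf mesophyll genes the sums were 23621 to 25156 and 23417 to 25687. The sums of the genotypes overlapped in all 5 lists and 0 of their genes passed the edgeR test. Of the leaf genes 4 were higher in each nup50c library than in each wild-type library, with the lowest edgeR adjusted p, 0.0520, for *CA1*. *RBCS1A* and *RCA* had log2 fold changes of -0.035 and -0.113. They make up most of the leaf sum, with means of 11622 and 6775 CPM in Col-0, so its overlap says little about the other 4. Without overlap, *RHD6* and *RSL4* of the root hair genes were higher in nup50c (log2 fold changes 1.36 and 0.74), *EXPA18* and *ADF8* were lower (-0.46 and -0.44), and *PP2-A1* of the phloem genes was lower (-0.14). Over all tested genes 11.7% were higher and 11.6% lower in this way. The part of tissue composition in the values that follow was not tested.

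The comparison asked whether the iron status genes differ between nup50c and wild-type seedlings. None of the 10 passed the test: 0 rose, where 1.12% of 21158 tested genes did, and 0 fell, where 1.17% did. The test was the quasi-likelihood test of edgeR, adjusted by Benjamini-Hochberg over all tested genes, and it called 2.28% of them in either direction. At an unadjusted p under 0.05 the count was also 0, against 16.6% of all tested genes. DESeq2 called 0 of the 9 to which it gave an adjusted p, all but *bHLH100*, against 6.04% of its tested genes. Limma on FPKM, with *bHLH101* removed by its filter, called 0 of 9, against 2.28% of its tested genes. The CPM of the groups overlapped for all 10. Groups that did not overlap were found for 23.4% of tested genes, 11.6% lower in nup50c and 11.7% higher. All 10 passed the filter on low counts. Their median log2 fold change was -0.09, with 4 above 0 and 6 below, beside a median of -0.003 over all tested genes, of which 50.5% were below 0.

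Among the regulators the well-measured genes gave the narrowest bounds. *BTS*, whose protein is a hemerythrin-domain E3 ligase that restrains the iron deficiency response, was measured at 111.9, 135.9 and 97.1 CPM in Col-0 and at 111.5, 127.5 and 116.7 CPM in the mutant. The nup50c libraries all lay inside the wild-type range. The log2 fold change was 0.04 (SE 0.12, adjusted p = 0.908), and its 95% interval reached from -0.23 to 0.32, which is from 1.17-fold lower to 1.24-fold higher. *PYE*, the bHLH repressor, was at 8.16, 10.2 and 4.95 CPM in Col-0 and at 6.79, 8.68 and 6.63 CPM in the mutant. Here too the mutant libraries lay within the wild-type range, which spanned 2.07-fold. The log2 fold change of *PYE* was -0.08 (SE 0.26, adjusted p = 0.931; 95% interval -0.67 to 0.51).

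**Figure D1:**
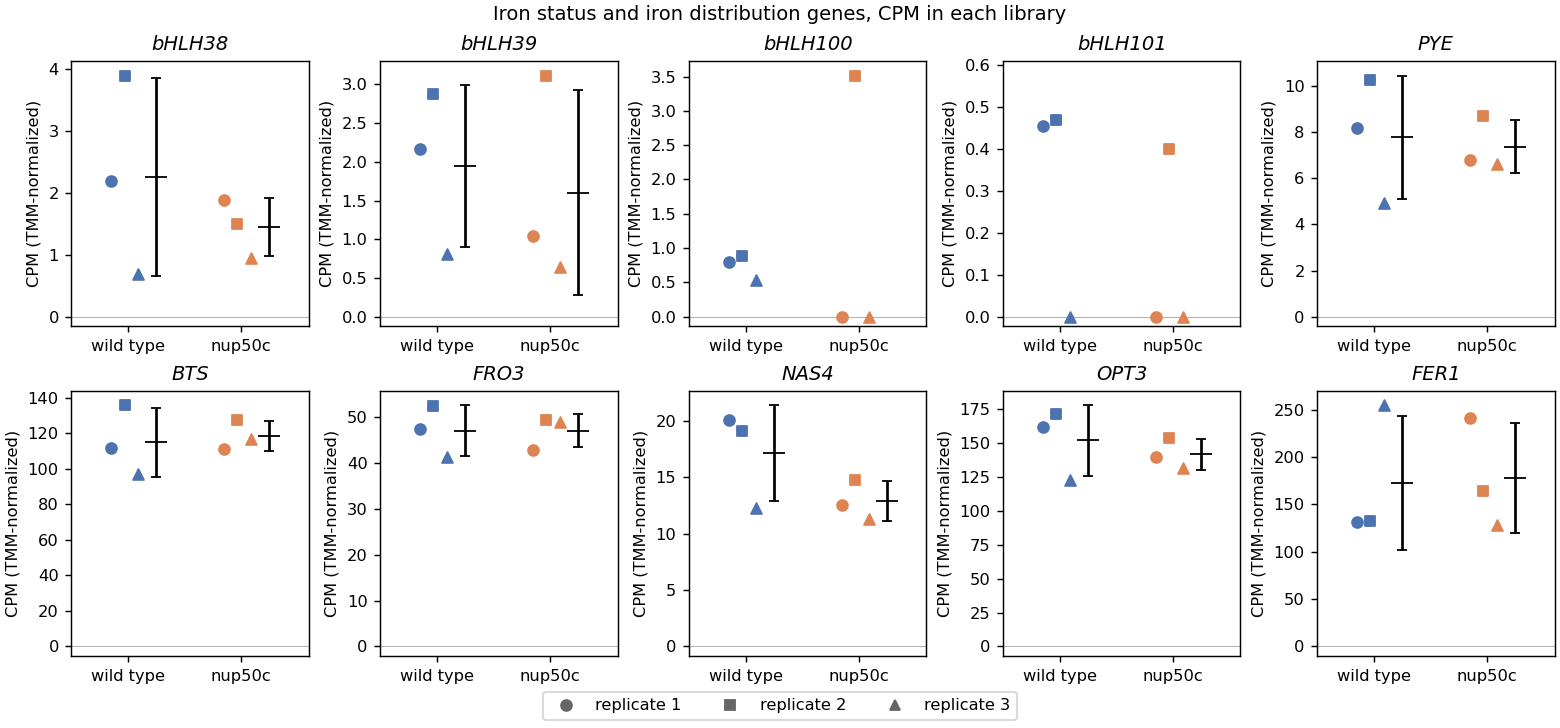
CPM (TMM-normalized, vertical axes from 0) of each gene in the 3 wild-type and 3 nup50c libraries. Symbols stand for the replicate number, and bars show the mean with the SD over 3 libraries, left out for *bHLH100* and *bHLH101*, which are listed at 0 in some libraries. In each panel the groups overlap, and wild-type replicate 3 is the lowest wild-type library in 9 of 10 panels and the highest for *FER1*.

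The 4 subgroup Ib genes were low and uneven. *bHLH38* held 77, 141 and 27 counts in Col-0 against 65, 56 and 31 in the mutant, or 2.19, 3.89 and 0.685 CPM against 1.89, 1.49 and 0.951. Wild-type replicates 2 and 3 bound the whole range, 5.68-fold apart. The log2 fold change was -0.64 (SE 0.60, adjusted p = 0.670), with a 95% interval from 3.99-fold lower to 1.64-fold higher. *bHLH39*, its tandem neighbour 1144 bases away, held 76, 104 and 32 counts in Col-0 against 36, 117 and 21 in the mutant. In CPM these were 2.16, 2.87 and 0.812 against 1.05, 3.11 and 0.644. Its highest and its lowest library were both nup50c libraries, replicates 2 and 3, which differed by 4.83-fold. The log2 fold change of *bHLH39* was -0.28 (SE 0.67, adjusted p = 0.897; 95% interval -1.79 to 1.24), so changes of 2-fold in either direction lie within the interval.

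*bHLH100* held 28, 32 and 21 counts in wild type. In nup50c it was listed at 0 in replicates 1 and 3 and at 132 counts, 3.51 CPM, in replicate 2. That library was above each wild-type library and the other nup50c libraries were below them. *bHLH101* held 16 and 17 counts in wild-type replicates 1 and 2 and 15 in nup50c replicate 2, and it was listed at 0 in the other 3 libraries. Both genes passed the filter on few counts, and the 95% intervals were wide. They ran from 14.2-fold lower to 35.9-fold higher for *bHLH100* (log2 fold change 0.67, SE 1.85, adjusted p = 0.914) and from 40.01-fold lower to 8.002-fold higher for *bHLH101* (-1.16, SE 1.84, adjusted p = 0.828). A count of 0 stood beside an FPKM of 0.390 for *bHLH101* in wild-type replicate 3, so a 0 in this table can be a failed estimate. Of all its 185190 values 57420 were 0 and only 2033 lay from 1 to 9, so a 0 is not read as absence here. For the same gene 1 count corresponded to 0.0864 FPKM in nup50c replicate 2 and to 0.0290 and 0.0280 FPKM in wild-type replicates 1 and 2.

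*FRO3* encodes a ferric reductase of mitochondria. It was measured at 47.5, 52.3 and 41.2 CPM in Col-0 and at 42.9, 49.3 and 48.9 CPM in the mutant. All libraries lay within 1.27-fold of each other, the smallest spread of the 10 genes. The log2 fold change was 0.00 (SE 0.10, adjusted p = 0.996), and the 95% interval ran from 1.17-fold lower to 1.18-fold higher. *OPT3*, a transporter that loads iron into the phloem, was at 162, 171 and 122 CPM in Col-0 and at 139, 154 and 131 CPM in the mutant. Its nup50c libraries also lay inside the wild-type range. The log2 fold change of *OPT3* was -0.10 (SE 0.13, adjusted p = 0.774), and its 95% interval went from 1.31-fold lower to 1.14-fold higher. Among the 5 phloem markers 0 passed the edgeR test, with log2 fold changes from -0.14 to 0.29.

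*NAS4* came closest to a difference. The gene encodes a nicotianamine synthase, an enzyme that makes the metal chelator nicotianamine. It was measured at 20.1, 19.1 and 12.3 CPM in Col-0 and at 12.5, 14.8 and 11.3 CPM in the mutant. The mutant libraries lay below wild-type replicates 1 and 2, while wild-type replicate 3 lay among them. The means were 17.2 ± 4.24 and 12.9 ± 1.77 CPM (SD, n = 3 each), and the log2 fold change was -0.41 (SE 0.20, edgeR unadjusted p = 0.0647, adjusted p = 0.339; 95% interval -0.85 to 0.03). The other nicotianamine synthase genes did not pass the edgeR test either, with log2 fold changes of -0.35 for *NAS1* (adjusted p = 0.149), -0.02 for *NAS2* (adjusted p = 0.988) and -0.54 for *NAS3* (adjusted p = 0.207). The groups did not overlap for *NAS1* and *NAS3*, both lower in nup50c, as were 11.6% of all tested genes. No source used here says how reads shared by copies of these families, or of the ferritin family, were counted.

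*FER1* varied widely within each genotype. It was at 131, 133 and 255 CPM in Col-0 and at 241, 164 and 129 CPM in the mutant. In each genotype 1 library stood well above the others, wild-type replicate 3 and nup50c replicate 1, and the lowest libraries of the groups were nearly level. The group means of 172.8 ± 70.8 and 177.9 ± 57.8 CPM (SD, n = 3 each) gave a log2 fold change of 0.04 (SE 0.39, adjusted p = 0.978; 95% interval -0.99 to 1.07). On a linear scale the interval ran from 1.99-fold lower to 2.10-fold higher. The SD of log2 CPM within the groups was 0.51, larger than in 98.6% of 1897 genes with a mean CPM within 2-fold of that of *FER1*.

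**Figure D2:**
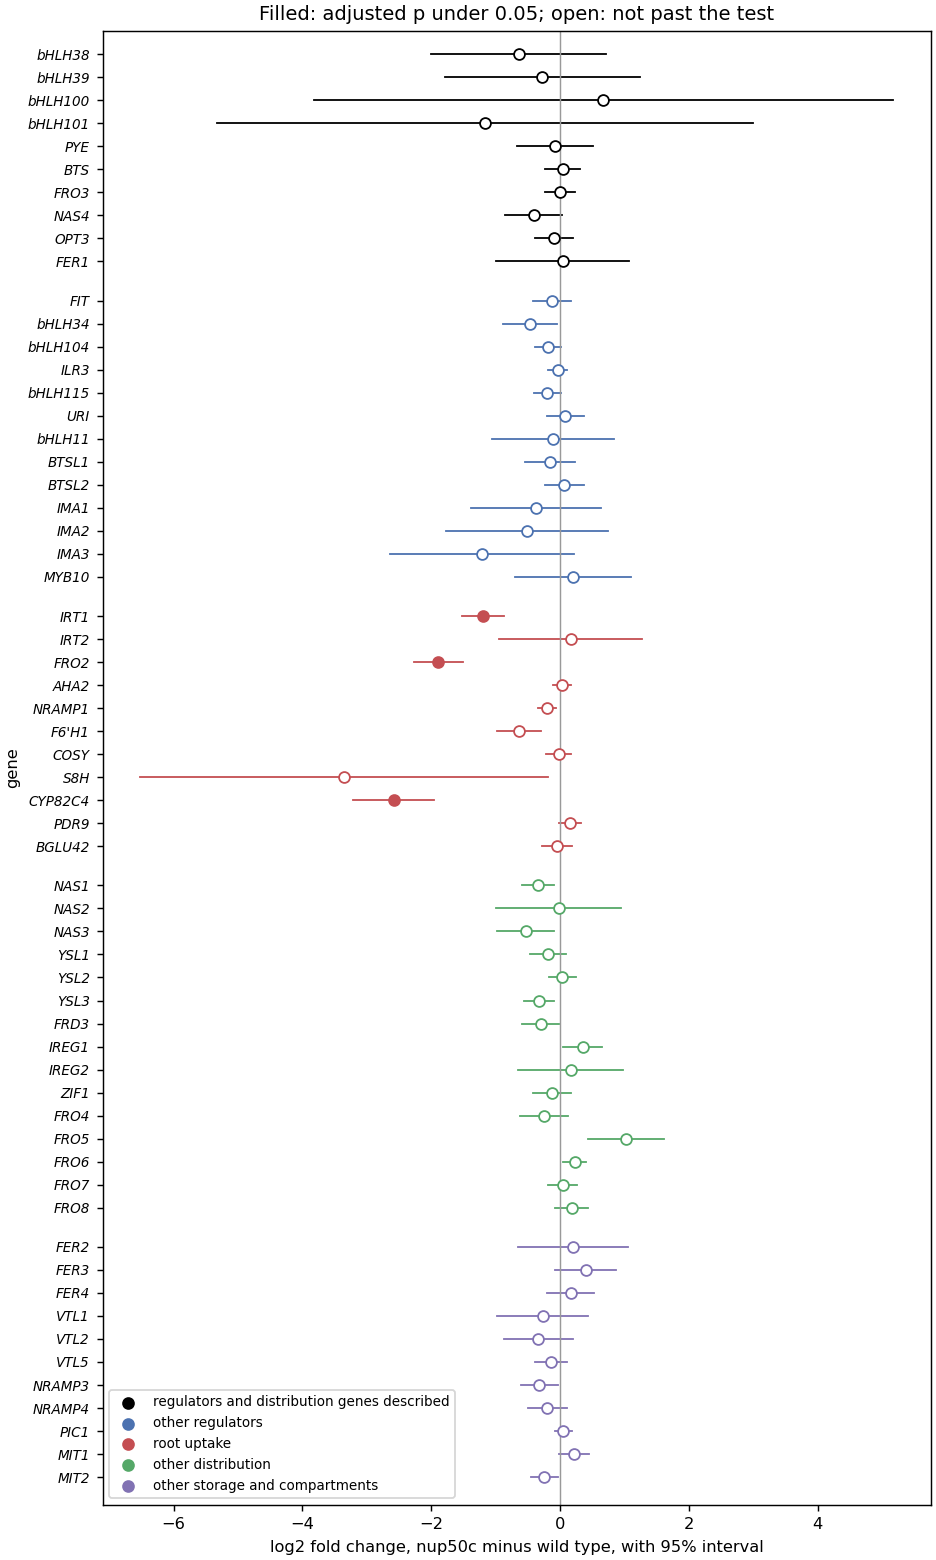
Log2 fold change, nup50c minus wild type, with its 95% interval from the edgeR fit, for the 10 genes and for 50 other tested iron genes by function. Filled points passed an adjusted p of 0.05: *IRT1*, *FRO2* and *CYP82C4*, all below 0, and none of the 10 genes at the top.

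Differences between libraries of one genotype ran in the same direction for most of these genes. In wild type, replicate 3 was the lowest library for 9 of the 10 and the highest for the tenth, *FER1*. It was the lowest for 33.1% and the highest for 35.1% of all tested genes without ties. Wild-type replicate 2 was the highest of its group for 8 of the 10, all but *NAS4* and *FER1*, and for 32.7% of all tested genes without ties. Replicate 2 of nup50c was the highest mutant library for 8 of the 10, all but *bHLH38* and *FER1*, and for 30.1% of all tested genes without ties. Replicate 3 of nup50c was the lowest mutant library for 6 of the 10 and for 35.7% of all tested genes without ties. Replicates of the same number thus shared places in both genotypes for many of these genes. These counts were the same in the deposited FPKM. The genes share libraries, so these are counts over dependent genes and not a test.

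The mean of the 4 Ib genes, as log2 CPM minus the mean over the 6 libraries, was 0.90, 1.253 and -0.77 in Col-0 against -1.18, 1.37 and -1.58 in the mutant. Its range within each genotype was wider than the distance between the genotype means, and 2 of the 4 genes enter it with counts of 0. The mean of *PYE*, *BTS*, *FRO3*, *NAS4* and *OPT3* was 0.14, 0.29 and -0.30 in Col-0 and -0.12, 0.11 and -0.12 in nup50c. For both sets wild-type replicate 3 stood below the other wild-type libraries and nup50c replicate 2 above the other mutant libraries. The 4 ferritin genes *FER1* to *FER4* averaged -0.37, -0.36 and 0.38 in Col-0 and 0.38, 0.11 and -0.15 in nup50c. There wild-type replicate 3 was the highest library of its group and nup50c replicate 1 of the other. *FER2*, *FER3* and *FER4* each had wild-type replicate 3 highest in its group and nup50c replicate 1 highest in its group, as *FER1* did. The Ib and ferritin genes were not opposite in every library. In nup50c replicate 3 the Ib mean and each of the 4 ferritin genes were the lowest of the mutant group. *FER2*, *FER3* and *FER4* had log2 fold changes of 0.20, 0.40 and 0.16 (edgeR adjusted p = 0.859, 0.381 and 0.684).

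**Figure D3:**
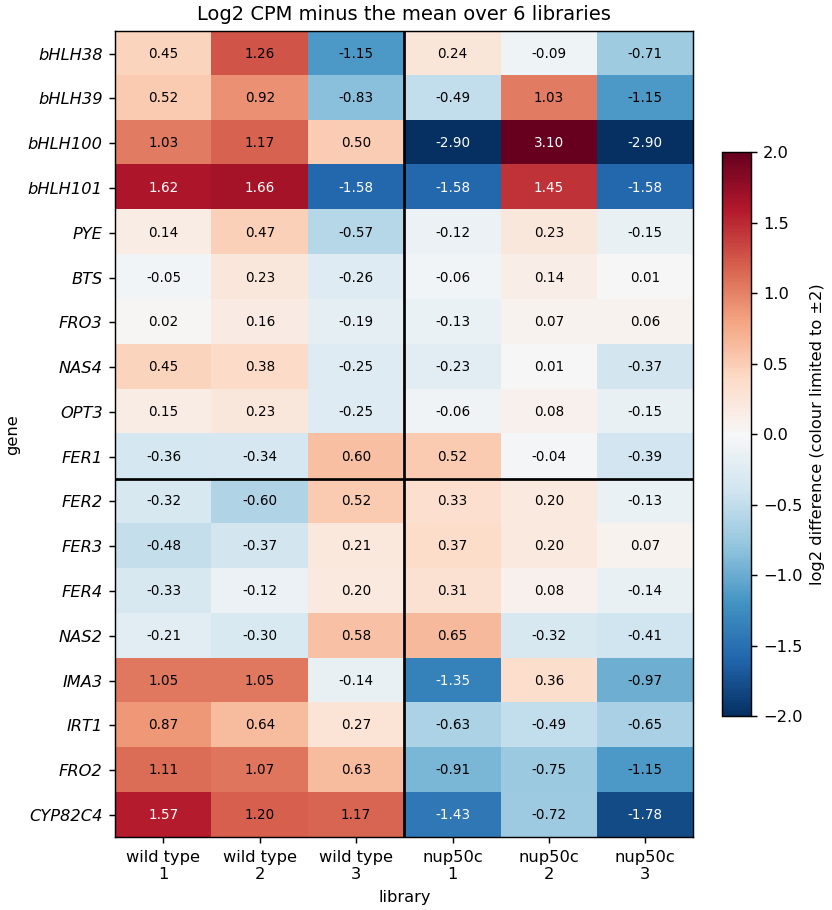
Log2 CPM (prior count 2) of each gene minus its mean over the 6 libraries, with the value printed in each cell and the colour limited at 2 in either direction. Above the line are the 10 genes and below it other ferritin genes, *NAS2*, *IMA3* and the 3 uptake genes that fell; values of *bHLH100* and *bHLH101* in libraries listed at 0 depend on the prior count. Wild-type replicate 3 is below 0 in 8 of the 10 upper rows, and the 3 uptake genes are above 0 in all wild-type libraries and below 0 in all nup50c libraries.

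Among 19818 genes with a mean of at least 1 CPM, the 3 whose centred log2 values came closest to the mean of the Ib genes were *PRA1.B3* (AT5G05380), AT2G03925 and AT2G30766. The root mean square differences were 0.30, 0.50 and 0.56 log2 units over 6 libraries. The last is *IMA3*, which encodes an IRON MAN peptide, a small promoter of the iron deficiency response. *IMA3* was measured at 17.9, 17.9 and 7.79 CPM in Col-0 and at 3.34, 11.02 and 4.36 CPM in the mutant. As with *bHLH39*, wild-type replicate 3 was the lowest of its group and nup50c replicate 2 the highest of the other. *IMA3* did not pass the edgeR test (log2 fold change -1.21, SE 0.57, adjusted p = 0.379). Of its relatives, *IMA2* had the same lowest and highest libraries, with wild-type replicates 2 and 3 nearly level at 1.24 and 1.17 CPM. *IMA1* was instead highest in wild-type replicate 3. The log2 fold changes of *IMA1* and *IMA2* were -0.37 and -0.51 (edgeR adjusted p = 0.761 and 0.731). For *FER1* the 3 closest were AT1G79890, *NAS2* and AT4G19890, at 0.13, 0.14 and 0.14 log2 units. *NAS2* was at 16.9, 15.8 and 29.1 CPM in Col-0 and at 30.7, 15.6 and 14.7 CPM in the mutant, so the libraries high in *FER1* were those high in *NAS2*. The closest genes were picked out of 19818 for their likeness over 6 libraries, and the values are descriptions.

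Set beside the 10 genes, 3 root uptake genes fell in nup50c, among them *FRO2* and *IRT1*, the known targets of FIT and the Ib factors. Of 53 other iron genes written into 4 lists by function, 51 had a row of counts and 50 were tested. Of these 0 rose, where 1.12% of all tested genes did, and 3 fell, where 1.17% did. All 3 belong to the 11 root uptake genes, and 0 of 13 other regulators, 0 of 15 other distribution genes and 0 of 11 other storage and organelle genes passed. *FRO2* was at 29.1, 28.3 and 20.8 CPM in Col-0 and at 7.11, 7.99 and 6.01 CPM in the mutant (log2 fold change -1.89, SE 0.17, edgeR adjusted p = 0.00208). In the authors' FPKM its difference was smaller, with means of 10.3 in Col-0 and 4.52 in the mutant. *IRT1* was at 84.1, 71.7 and 55.6 CPM in Col-0 and at 29.7, 32.8 and 29.3 CPM in the mutant (-1.20, SE 0.14, adjusted p = 0.00775). *CYP82C4*, an enzyme that makes an iron-chelating coumarin, was at 17.1, 13.2 and 13.0 CPM against 2.09, 3.46 and 1.63 CPM (-2.59, SE 0.28, adjusted p = 0.00417). For these 3 genes every mutant library lay below every wild-type library, as for 11.6% of all tested genes. With a block on the replicate number *FRO2* still passed (edgeR adjusted p = 0.017). *IRT1* and *CYP82C4* then did not (edgeR adjusted p = 0.0547 for both).

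Across the genotypes, libraries with more *bHLH39* did not always hold more *FRO2* and *IRT1*. Nup50c replicate 2 held the most *bHLH39* of all 6 libraries, 3.11 CPM, and wild-type replicate 3 the least of the wild-type libraries, 0.812 CPM. In the same pair *FRO2* was 7.99 CPM in the mutant library and 20.8 CPM in the wild-type library, and *IRT1* was 32.8 and 55.6 CPM. Within wild type, replicate 3 was lowest for *bHLH39*, *FRO2* and *IRT1*, but replicate 2 was highest for *bHLH39* and replicate 1 for the other two. Within nup50c, replicate 2 was highest for all 3. *bHLH38* was instead highest in nup50c replicate 1, and its mutant libraries, at 1.89, 1.49 and 0.951 CPM, lay above wild-type replicate 3, at 0.685 CPM. Both Ib genes rest on few counts, and their part in the fall of *FRO2* and *IRT1* was not tested. *FIT*, the partner of the Ib proteins, was at 14.1, 13.2 and 13.4 CPM in Col-0 and at 11.7, 14.1 and 11.4 CPM in the mutant (log2 fold change -0.13, SE 0.13, adjusted p = 0.707).

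None of the other regulators passed the edgeR test. Of the subgroup IVc factors that activate the Ib genes, *ILR3* and *bHLH115* had log2 fold changes of -0.04 (adjusted p = 0.835) and -0.20 (adjusted p = 0.340). That of *bHLH104*, also of subgroup IVc, was -0.19 (adjusted p = 0.352). Another subgroup IVc gene, *bHLH34*, had the smallest p of the 13 other regulators, at 8.76, 8.47 and 7.67 CPM in Col-0 and 6.71, 6.52 and 4.76 CPM in the mutant (-0.47, SE 0.19, adjusted p = 0.248). Its groups did not overlap, as for 23.4% of all tested genes, but it did not pass. Among the other uptake genes the smallest p belonged to *F6'H1*, which encodes a step of coumarin synthesis (-0.64, adjusted p = 0.0705), and *NRAMP1*, a metal transporter (-0.20, adjusted p = 0.134). In the other distribution genes these were *FRO5*, of the ferric reductase family (1.02, adjusted p = 0.110), and *YSL3*, a transporter of metal-nicotianamine complexes (-0.33, adjusted p = 0.142). In the storage and organelle genes they were *MIT2*, a mitochondrial iron importer (-0.25, adjusted p = 0.220), and *NRAMP3*, a vacuolar iron exporter (-0.32, adjusted p = 0.246).

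A pair of clock genes differed between the genotypes in the same libraries. *CCA1*, a morning gene, was at 83.5, 65.9 and 69.6 CPM in Col-0 and at 27.1, 26.6 and 23.6 CPM in the mutant (edgeR adjusted p = 0.000833). *TOC1*, an evening gene, was at 62.6, 80.9 and 73.5 CPM against 113.5, 114.6 and 127.9 CPM (edgeR adjusted p = 0.00951). *FER1* and *IRT1* are known to follow the time of day in Arabidopsis. With no harvest time given, time of day and genotype cannot be told apart.

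Levels per length, as the authors' FPKM, put the 10 genes in a wide order. *FER1* was highest, from 81.6 to 161 FPKM with a median of 95.9 over the 6 libraries. *OPT3* followed at 40.8 to 57.8 (median 50.2), *BTS* at 19.4 to 27.5 (23.1) and *FRO3* at 14.1 to 19.1 (16.8). The ranges of these 4 genes did not overlap, and neither did those of *FRO3* and *NAS4*, which ran from 7.06 to 12.6 FPKM (median 8.73). *PYE*, at 3.49 to 7.31 FPKM (5.35), overlapped *NAS4* slightly over all libraries but not within wild type. The Ib genes came last. *bHLH38* ran from 0.567 to 3.26 FPKM (median 1.43) and *bHLH39* from 0.473 to 2.36 (median 1.20), and these did not differ beyond their spread, nor did *bHLH100* and *bHLH101*, which reached 2.81 and 1.296 FPKM and were listed at 0 in 2 nup50c libraries each.

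**Figure D4:**
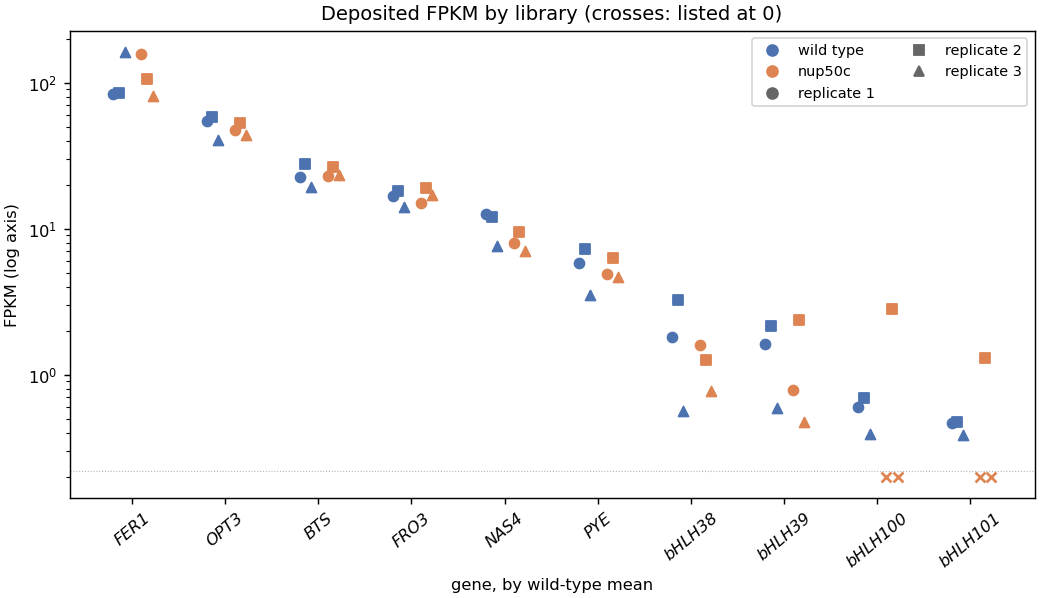
Deposited FPKM (log axis) of each gene in each library, genes in order of the wild-type mean, with crosses at the foot for libraries listed at 0. *FER1* to *NAS4* form 5 separate steps, and the 4 Ib genes overlap one another at the low end.

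Positions in TAIR10.1 bear on the counts of 4 genes, since the labels call the libraries strand-specific but no source used here says whether the counting made use of strand. *bHLH38* lies on chromosome 3 from 21084035 to 21085245, on the minus strand, and 386 of its bases overlap AT3G56960 on the other strand, which held 241 to 381 counts. *bHLH101*, on chromosome 5 from 1138410 to 1139633, shares 79 bases with AT5G04140, which held 39039 to 52403 counts. *FRO3*, on chromosome 1 from 8149868 to 8153796, shares 24 bases with AT1G23010 (141 to 285 counts), and *FER1*, on chromosome 5 from 227953 to 230051, shares 1334 with the long noncoding AT5G01595 (45 to 72 counts). Reads of such pairs cannot be told apart without strand. The neighbour of *bHLH38* held more counts than the gene itself in each library. The other 6 genes overlap no annotated gene.

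Leaving out 1 library at a time called none of the 10 genes, and it moved the fold changes of the uneven ones. *bHLH38* went from -0.64 to 0.01 on the log2 scale without wild-type replicate 2 and to -1.07 without wild-type replicate 3. *bHLH39* went to -1.20 without nup50c replicate 2 and to 0.12 without wild-type replicate 2. *FER1* went to 0.43 without wild-type replicate 3 and to -0.24 without nup50c replicate 1. *NAS4* stayed below 0 in all 6, from -0.60 to -0.29, and *BTS* between -0.063 and 0.185.

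**Figure D5:**
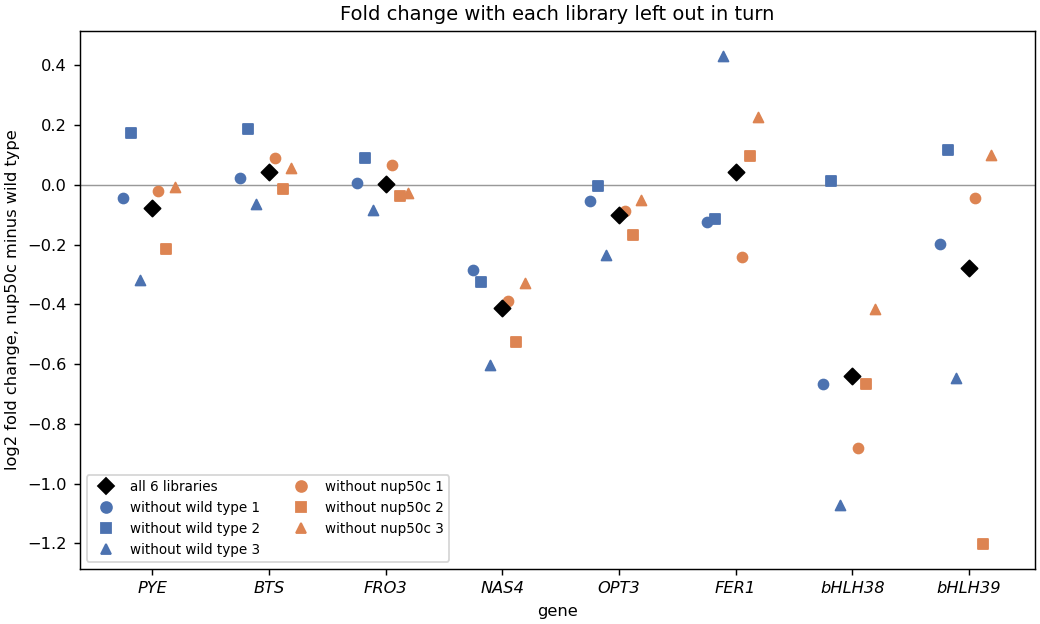
Log2 fold change, nup50c minus wild type, of 8 genes with all 6 libraries (diamonds) and with each library left out in turn (coloured symbols). *BTS*, *FRO3* and *OPT3* stay between -0.234 and 0.185, *NAS4* stays below 0, and *bHLH38* and *bHLH39* spread the most.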

How the data were processed

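Messenger RNA of 6 whole-seedling libraries was analysed from 2 tables. The authors deposited whole-number counts per gene and FPKM. TAIR10, HTSeq 0.6.1p1 and HISAT2 2.0.4 are listed in the submitters' processing notes without saying what each did. The program behind each table, and the read total used for the deposited FPKM, are not stated there. Of 185190 counts 57420 are 0, of which 1001 stand beside an FPKM above 0, and 2033 lie from 1 to 9. That shortage of small counts is unusual for read counts, and no source used here explains it.

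The whole count table was fitted with edgeR 4.0.16 under R 4.3.3: filterByExpr (at least 10 counts, 15 in total), TMM, robust quasi-likelihood F test, no covariate, Benjamini-Hochberg adjustment over 21158 genes, called under 0.05. Standard errors and 95% intervals come from the moderated F. Group means carry the SD over 3 libraries. No library repeated another of its group (chi-square 14.7 to 30.1 per gene). The fit was tested on simulated data. Alternatives used DESeq2 1.42.0, its size factors, other filters, a block on the replicate number, each library left out, and limma 3.58.1 on log2(FPKM + 1) and log2(FPKM + 0.1).

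Genes and lists were chosen with earlier results of these data known. All 10 genes are named; of each other iron list, the called genes and the 2 with the smallest p besides. For the Ib mean and for *FER1*, the 3 genes closest over the libraries are named, which gave *IMA3* and *NAS2*. *FER2* to *FER4*, *NAS1*, *NAS3*, *FIT*, *ILR3*, *bHLH104*, *IMA1*, *IMA2* and the marker genes were named outside this rule, after their values were seen. Symbols of listed genes were written with the lists. TAIR10.1 supplied positions and sequence, as its nuclear chromosomes are those of TAIR10.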

Additional observations from a re-analysis of the deposited data

Results flagged for a closer look

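Among the listed genes 3 have a row in the FPKM table and none in the count table, and 2 of them reached a level in nup50c above that of wild type, which marked them for a closer look. *VIT1*, a vacuolar iron importer, had an FPKM of 0 in each wild-type library and of 0.523, 0.335 and 0 in the nup50c libraries, so 1 mutant library was no higher than wild type. *CASP5*, an endodermis marker, had an FPKM of 0 in each wild-type library and of 0.432, 0.369 and 0.481 in the nup50c libraries. The other gene, *MYB72*, an iron regulator, went the other way, at 0.357 FPKM in wild-type replicate 1 and 0 in the other libraries. None of the 3 passed limma on log2(FPKM + 1) without a filter, with adjusted p = 0.490 for *VIT1*, 0.199 for *CASP5* and 0.776 for *MYB72*.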

How the results depend on the processing

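No gene of the 10 was called in any alternative that tested it, and the lowest adjusted p was 0.103. With at least 10 counts everywhere *bHLH100* and *bHLH101* were not tested, *bHLH101* was not tested in the filtered FPKM settings, and DESeq2 gave *bHLH100* no adjusted p. Of 136 values under an alternative 118 kept their sign and 18 changed it. Sign changes with a library left out gave 0.011 (range -1.07 to 0.011) for *bHLH38*, 0.12 and 0.10 (-1.20 to 0.12) for *bHLH39*, -7.72 (to 1.26) for *bHLH100* without nup50c replicate 2, 0.17 (-0.32 to 0.17) for *PYE*, -0.063 and -0.014 (-0.063 to 0.185) for *BTS*, and -0.12, -0.12 and -0.24 (to 0.43) for *FER1*. *FRO3*, near 0 throughout, gave -0.085, -0.036 and -0.028 (to 0.088), and -0.00033 with DESeq2, -0.00042 with its size factors and -0.0024 with at least 10 counts everywhere. *bHLH100* had -3.07 with the replicate block and -1.08 with FPKM and a pseudocount of 0.1. Its sign rests on nup50c replicate 2.

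Of the other iron genes 1 was higher with DESeq2, in each of the 3 FPKM settings, and when wild-type replicate 3 or nup50c replicate 1 was left out (0 to 1 over libraries left out), and 5 were lower with DESeq2 and 1 with the replicate block (3 to 4 over libraries left out). Over all genes the higher and lower counts were 660 and 617 with DESeq2, 394 and 378 with at least 10 counts everywhere, 12 and 19 with the replicate block, and 43 to 172 and 65 to 266 with a library left out. The cause was not tested. With the block *IRT1* and *CYP82C4* had log2 fold changes of -1.19 and -2.64 (adjusted p = 0.0547 for both). On FPKM *FRO2* had -1.01 with a pseudocount of 1 (limma adjusted p = 0.0262) and -1.15 with 0.1 (limma adjusted p = 0.0279), beside -1.89 on counts. Why the 2 tables differ for *FRO2* was not tested. Deviations of same-numbered libraries from their group means had correlations of -0.03, -0.12 and -0.10 over all tested genes. With 3 libraries per group these cannot decide whether same-numbered libraries were grown or handled together. Low counts limit *bHLH100*, with at most 132 in a library, and *bHLH101*, with at most 17.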
